A study of Arabidopsis thaliana with 28 samples.

Results

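Histone genes of Arabidopsis thaliana were followed in 2 dissected zones of the root tip, the elongation zone and the meristematic zone. A list of 46 loci for linker histone H1 and core histones H2A, H2B, H3 and H4 was used, and a locus counted as measured where an Affymetrix ATH1 probe set was paired with that gene alone. This held for 16 of the 46 loci, each with 1 probe set, among 22746 probe sets tested. They were 10 of 11 H2B loci, 3 of 11 H3 loci and all 3 H1 loci. None of the 13 H2A loci and none of the 8 H4 loci was measured in this way.

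The roots came from Columbia-0 seedlings labelled as 5 days old, and the labels name no transgene or mutation in any group. Roots on 1 mM hydrogen peroxide (H2O2) were taken after 1, 3 and 6 h, and roots on control Murashige and Skoog (MS) medium at 0, 1, 3 and 6 h. Each tip was cut under a microscope with a razor blade into both zones, and 30 roots were pooled for each of 2 biological replicates per group, which gave 28 arrays in 14 groups. RNA went through a 2-cycle amplification before labelling, and the number of arrays limits the precision of every value.

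Histones package DNA into nucleosomes, with pairs of H2A, H2B, H3 and H4 at the core and H1 on the linker. Replication-linked histones, such as plant H3.1 and H4, are made mainly in S phase and loaded behind the replication fork. Variants such as H3.3 are made and exchanged through the cell cycle, and CENH3 replaces H3 at centromeres. Dividing cells fill the meristematic zone of the root, while cells of the elongation zone have left division and many copy their DNA again without dividing.

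The remaining 30 loci were not measured singly. For 16 of them the platform annotation listed 13 probe sets shared by genes of 1 histone type, which were read as the type and not as a gene. All 5 H3.1 genes were listed together on 5 probe sets, all 3 H3.3 genes on 3, and all 8 H4 genes on 5. The other 14 loci, which are the 13 H2A loci and HTB9, had no listed probe set and are reported as not measured. The contrast of replication-linked with variant histones therefore rests on 10 shared H3.1 and H4 probe sets against 3 shared H3.3 probe sets and 4 single genes, and no H2A variant enters it. Histone coding sequences are close to identical within a type, so a probe set named for 1 gene may also bind its relatives, and such values carry that uncertainty.

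The first principal component over all probe sets held 75.6% of the variance and separated the zones. On the second, with 4.35%, 6 of the 8 arrays taken at 1 h lay apart from all others. The exceptions were replicate 1 on control medium in each zone, at 6.86 in the elongation and -2.39 in the meristematic zone. Replicate 2 of the same groups lay at -39.4 and -32.13, so the control replicates at 1 h differed. Array medians ranged from 49.28 to 76.1 in signal units, and replicate arrays correlated across probe sets with r between 0.9649 and 0.9867. Of the listed markers 1 of 4 for the meristematic zone and 3 of 4 for the elongation zone were measured. All of these followed the labels, the first lower and the others higher in the elongation zone. BBM, a transcription factor of the root stem cell niche, lay between 1.95 and 7.69 in all elongation zone arrays and between 119.7 and 210.7 in all meristematic zone arrays. UPB1, a transcription factor at the border of elongation, ranged from 429.8 to 1829 in the elongation zone and from 13.5 to 49.4 in the meristematic zone. None of the 3 root cap markers and none of the 3 shoot markers had a probe set of its own, so those tissues were not checked.

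In control roots the elongation zone had less of most histone transcripts that passed the test. Of the 16 histone genes 8 were lower in the elongation zone, 3 were higher and 5 did not pass, by limma at an adjusted p under 0.05 over all probe sets. HTB1 and HTB2 for H2B were 2.48-fold and 2.04-fold lower and HTR12 for CENH3 2.20-fold lower on the log2(signal + 16) scale, while HTB3, HTB6 and the linker gene H1.2 went the other way. This comparison called 58.3% of all probe sets, 32.3% lower and 26.0% higher in the elongation zone. Probe sets with a mean signal of at least 50 were called more often, 83.8% of them, and lower in 46.5%. Of the 11 histone genes that bright 10 were called, against 1 of the 5 dimmer ones, so the share of histone genes called was near that of other bright probe sets and is no result about histones. The direction and size by gene follow. In tissue of this kind fewer cells with a transcript and less transcript per cell cannot be told apart.

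HTB1 (AT1G07790), an H2B gene, had signals with a low of 551, a median of 760 and a high of 1013 over the 8 control arrays of the elongation zone, against 1451, 1942 and 2443 over the 8 of the meristematic zone. No elongation zone array reached any meristematic one. The difference was -1.31 ± 0.12 (SE) on the log2(signal + 16) scale, with an adjusted p of 4.57e-09 in limma. HTB2 (AT5G22880), also H2B, had a low of 492, a median of 702 and a high of 980.2 in the elongation zone, against 1171, 1397 and 1756 in the meristematic zone. The ranges again did not meet, and the log2 difference was -1.03 ± 0.09 (limma, adjusted p = 1.25e-09).

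HTR12 (AT1G01370) encodes CENH3, the H3 variant that marks the centromere. Its signal ranged from 47.0 to 95.9 with a median of 79.6 in the elongation zone, against 137.5 to 223 with a median of 194 in the meristematic zone. The zones did not overlap, and the log2 difference was -1.14 ± 0.12 (limma, adjusted p = 2.67e-08). HTB1, HTB2 and HTR12 were thus the 3 of 16 histone genes whose zones did not overlap on control medium, which held for 34.4% of all probe sets.

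HTB4 (AT5G59910), another H2B gene, had a low of 2161, a median of 2484 and a high of 3424 in the elongation zone, against 3235, 4470.0 and 5658 in the meristematic zone. The ranges met only at their ends, and the log2 difference was -0.72 ± 0.09. HTB5 (AT2G37470) differed by -0.57 ± 0.11, with medians of 582.6 and 917.5 in the elongation and meristematic zones. HTB11 (AT3G46030) differed by -0.33 ± 0.08, with medians of 1920.0 and 2454. All 3 were lower by limma's test with overlapping ranges.

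A pair of H2B genes ran against the rest of their family. HTB3 (AT2G28720) had a low of 160.8, a median of 209 and a high of 257 in the elongation zone, against 111.5, 130.3 and 183 in the meristematic zone. Most elongation zone arrays lay above the meristematic ones, and the log2 difference was 0.58 ± 0.12 (limma, adjusted p = 0.000382). HTB6 (AT3G53650) ranged from 312 to 623 with a median of 455 in the elongation zone, against 204.5 to 417 with a median of 333 in the meristematic zone. The ranges overlapped widely, and the log2 difference was 0.41 ± 0.13 (limma, adjusted p = 0.0115). HTB7 (AT3G09480) and HTB10 (AT5G02570) did not pass, at -0.27 ± 0.16 and 0.06 ± 0.17. With the replicate number as a block HTB7 passed as lower, with an adjusted p by limma of 0.0416 on control medium and 0.0125 on H2O2. The 9 H2B genes of the main type thus held 5 lower, 2 higher and 2 that did not pass, with a median of -0.33 beside -0.02 over all probe sets.

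Linker histones were split as well. H1.1 (AT1G06760), a main H1 of somatic cells, ranged from 1740.0 to 2323 in the elongation zone, against 2282 to 3117 in the meristematic zone, a log2 difference of -0.36 ± 0.07 (limma, adjusted p = 0.000109). H1.2 (AT2G30620), the other main H1, ranged from 2828 to 3631 in the elongation zone, against 2016 to 3400.0 in the meristematic zone, a difference of 0.29 ± 0.08 (limma, adjusted p = 0.00311). With quantile normalization the call of H1.2 was lost, at 0.16 (limma, adjusted p = 0.0806). One was lower and the other higher, each with ranges that overlapped. HIS1-3 (AT2G18050), an H1 known for its induction by drought, stayed dim, at 1.51 to 23.8 against 0.709 to 18.7, and did not pass.

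**Figure D1:**
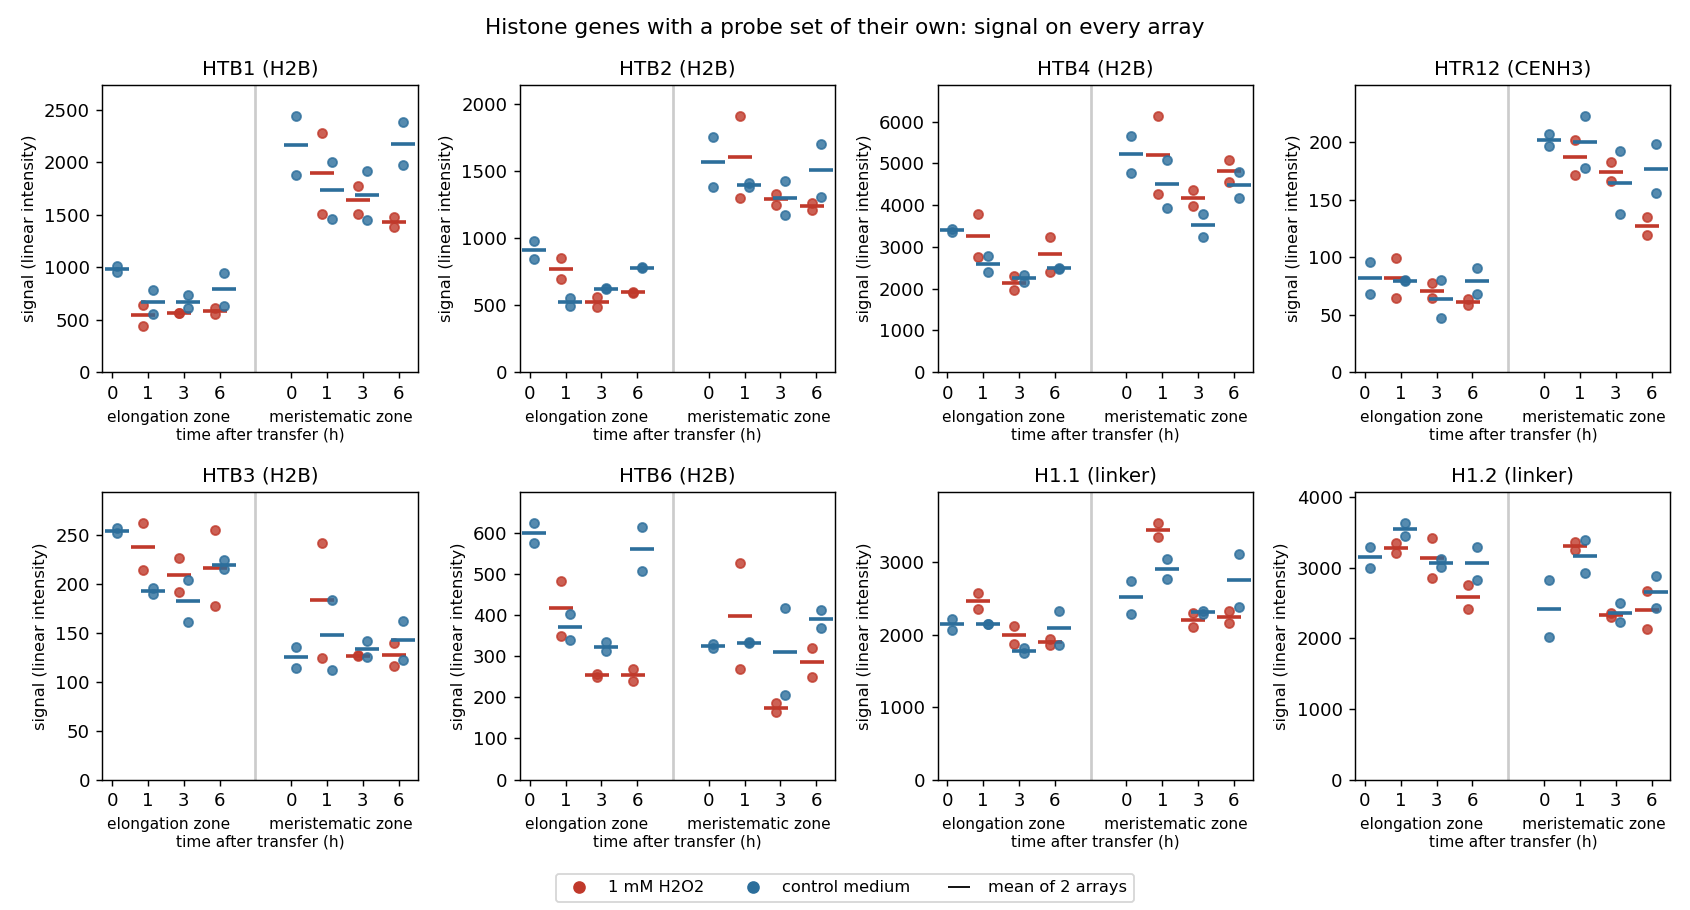
Signal on every array (linear intensity, vertical axis from 0) of 8 histone genes, with the elongation zone left of the meristematic zone in each panel and time after transfer (h) along the horizontal axis. Points are single arrays, on 1 mM H2O2 in red and on control medium in blue, and dashes are means of 2 arrays. HTB1, HTB2 and HTR12 lie lower in the elongation zone on every array, HTB3 and HTB6 lean higher there, and the ranges of both media overlap in each zone.

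The remaining single genes are special forms that were dim in roots. HTB8 (AT1G08170), an H2B variant of seeds, ranged from 2.59 to 18.0 in the elongation zone, against 13.3 to 32.7 in the meristematic zone. It passed at -0.52 ± 0.21 (limma, adjusted p = 0.0385), but leaving out any 1 of 10 of the arrays ended that call, with an adjusted p of up to 0.113. HTB8 also did not pass with a pseudocount of 1 (limma, adjusted p = 0.0547) or with quantile normalization (limma, adjusted p = 0.0514). HTR10 (AT1G19890), an H3 of male gametes, ranged from 11.3 to 43.4 against 17.9 to 36.6, and HTR6 (AT1G13370), an H3-like gene, from 7.05 to 27.9 against 9.40 to 20.4. Neither passed. The single-gene variants other than HTR12 therefore say little about these zones, since between 24.46% and 31.14% of all probe sets per array also had a signal under 16.

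The shared probe sets give the types that the single genes miss. All 5 H3.1 probe sets were lower in the elongation zone of control roots, with log2 differences from -1.31 to -0.33 and a median of -0.41. The probe set 250434_at for H3.1 had a low of 447, a median of 594 and a high of 802 in the elongation zone, against 1142, 1615 and 1840.0 in the meristematic zone, with no overlap. Its neighbour in the list, 257714_at, is annotated with the same 5 genes, yet its ranges overlapped, at 471 to 1167 against 644 to 1205, and its difference was -0.33 ± 0.11. For that probe set the adjusted p by limma was 0.0153, and 0.0503 without replicate 1 of the meristematic zone at 3 h on control medium. The 95% intervals of these probe sets, listed for the same genes, were -1.52 to -1.10 and -0.56 to -0.10 and did not meet, and which of the genes each one reads was not tested.

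Among the H4 probe sets 4 of 5 were lower, with log2 differences from -0.77 to -0.16 over the 5 and a median of -0.39. The call of 247692_s_at for H4 was lost with quantile normalization, at -0.04 (limma, adjusted p = 0.563). The probe set 252562_s_at for H4 ranged from 850.3 to 1752 with a median of 1181 in the elongation zone, against 1537 to 2358 with a median of 1902 in the meristematic zone. The H3.3 probe sets gave 2 lower of 3, with a median of -0.21. Of these 252824_at ranged from 2642 to 3538 in the elongation zone, against 3806 to 5218 in the meristematic zone, with no overlap and a difference of -0.56 ± 0.09. The other 2 differed by -0.21 ± 0.06 and -0.01 ± 0.09, and 252849_at, the second of them, did not pass.

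Set side by side, 9 of the 10 replication-linked probe sets and 4 of the 7 variant ones were lower in the elongation zone of control roots, and none was higher. Their median log2 differences were -0.41 and -0.24, beside -0.02 for all probe sets and -0.13 for those with a mean signal of at least 50. The variant median includes the dim HTB8, HTR6 and HTR10, whose differences this scale understates, so the gap between these medians depends on dim genes. The brighter variant values were -1.14 for CENH3 and -0.56, -0.21 and -0.01 for H3.3. The classes overlapped, because CENH3 lay near the lowest replication-linked value and H3.3 probe sets fell on both sides of the H4 median. The 11 of 13 shared probe sets called make 84.6%, close to the 83.8% of all bright probe sets called in either direction. All 11 were lower, beside 32.3% of all probe sets called lower and a larger share of the bright ones, given above. Probe sets of 1 type list the same genes, so their calls are not independent.

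These counts depend on how arrays are scaled, because the deposited values share a trimmed mean and not a median. Centring each array on its median moved the median of all probe sets to 0.26, called 71.0% of them and called 24.4% lower. With that centring HTB1, HTB2, HTB4, HTB5 and HTR12 were still lower in the elongation zone, HTB3, HTB6 and H1.2 still higher, and HTB11, HTB8 and H1.1 no longer passed, while HIS1-3 was called higher. The replication-linked median was then -0.13 and the variant median 0.04, and 5 of the 13 shared probe sets were called. The H3.3 probe set 252849_at was then higher, at 0.27 (limma, adjusted p = 0.0131), and 250397_at turned to 0.07 without passing. The 3' to 5' signal ratio of control probe sets is a sign of RNA and amplification quality, and 1 of 3 such ratios stood apart by zone on control medium. The first GAPDH ratio had a log2 of 0.03 ± 0.22 over the 8 elongation zone arrays, against 0.43 ± 0.18 over the 8 of the meristematic zone (SD). A second GAPDH ratio was 0.04 ± 0.11 against 0.08 ± 0.07 on the same arrays, and the actin ratio 1.32 ± 0.08 against 1.26 ± 0.12, differences no larger than the spread between arrays. On H2O2 the first GAPDH ratio was -0.01 ± 0.15 over the 6 elongation zone arrays, against 0.54 ± 0.13 over the 6 of the meristematic zone. The second was -0.11 ± 0.09 against 0.07 ± 0.06, and the actin ratio 1.45 ± 0.09 against 1.27 ± 0.16. In the elongation zone the second GAPDH and actin ratios also stood apart from their values on control medium. The part of these ratios in the zone and H2O2 differences of histones was not tested.

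On H2O2 medium the zone pattern of control roots was read on 12 other arrays. Of the 16 histone genes 7 were lower in the elongation zone, 1 was higher and 8 did not pass, while the comparison called 56.5% of all probe sets, 32.9% lower and 23.6% higher. All 8 had also been called on control medium. HTB1 had a low of 439, a median of 562 and a high of 641 over the 6 elongation zone arrays, against 1378, 1507 and 2282 over the 6 of the meristematic zone, a log2 difference of -1.52 ± 0.14 (limma, adjusted p = 5.13e-09). HTR12 ranged from 58.2 to 99.4 against 119.7 to 201.7, a difference of -1.03 ± 0.13. HTB1, HTB2, HTB4 and HTR12 had no overlap between zones, 4 of 16 genes beside 40.4% of all probe sets.

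HTB3 was again higher in the elongation zone on H2O2, by 0.58 ± 0.14 (limma, adjusted p = 0.00156). HTB6 and H1.2 did not pass there, at 0.16 ± 0.15 and 0.17 ± 0.09. The call of H1.1, at -0.29 ± 0.08, was lost without the arrays taken at 1 h, where its adjusted p by limma was 0.135. All 5 H3.1 and 4 of 5 H4 probe sets were lower, as was 1 of 3 for H3.3. All of these are bright, and bright probe sets were called more often on control medium. The share called over all probe sets is therefore no like background for them. Without the arrays taken at 1 h the H3.1 probe set 247192_at no longer passed, at -0.32 (limma, adjusted p = 0.0675). The median log2 differences were -0.64 for replication-linked, -0.43 for H2B and -0.30 for variant probe sets, beside -0.07 for all. The variant set again includes the dim HTB8, HTR6 and HTR10, and its median moved with the value added before the log, as given at the end. Whether replication-linked and variant differences depart from each other was not tested, since lists were only described here. With median centring 5 genes were lower and 4 higher on H2O2, the median of all probe sets was 0.28, and 250397_at for H3.3 turned to 0.30 (limma, adjusted p = 0.00361).

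**Figure D2:**
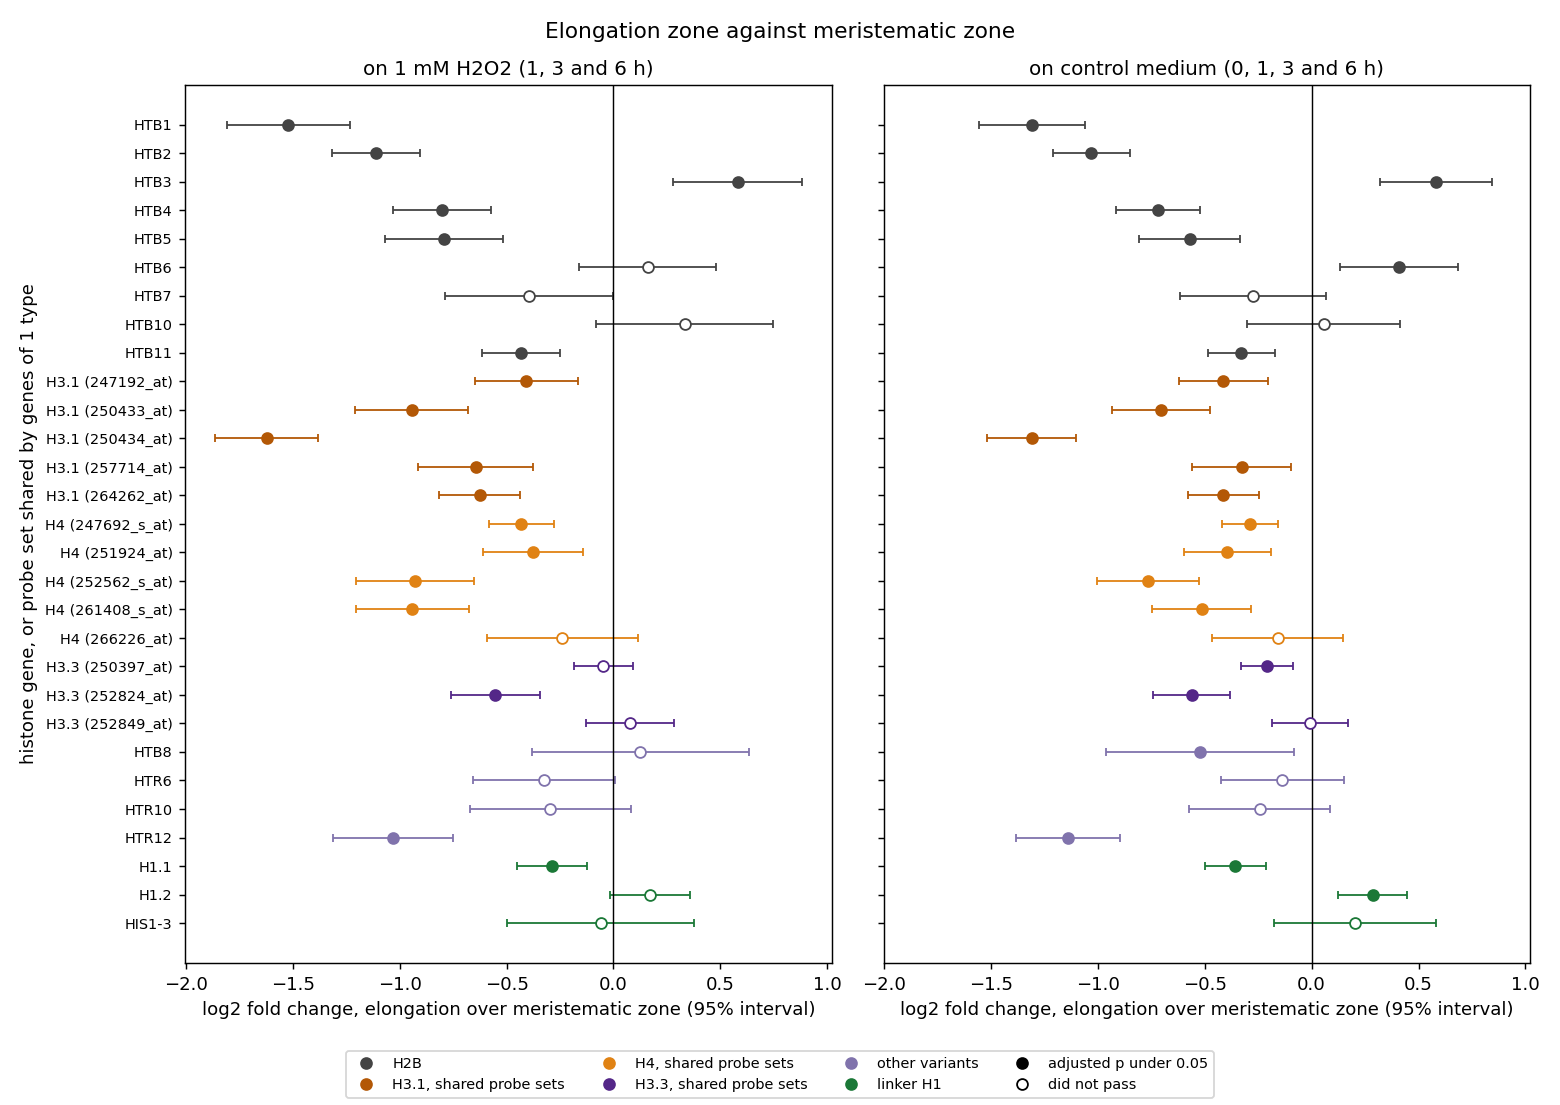
Log2 fold change of the elongation over the meristematic zone (horizontal axis, points, with 95% intervals as bars) on 1 mM H2O2 at left and on control medium at right, for 16 histone genes and 13 shared probe sets in rows. Filled points had an adjusted p under 0.05 in limma. H3.1 and most H4 probe sets, HTB1, HTB2 and HTR12 lie left of 0 in both panels, and HTB3 lies right of 0 in both.

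The zones were also set side by side at each of the 7 pairs of time and medium. HTB1 lay lower in the elongation zone in all 7, by -1.78 to -1.11 on the log2 scale, and HTR12 in all 7, by -1.20 to -0.89. HTB2, HTB4, HTB5, HTB11, HTR10 and H1.1 were also below 0 in 7 of 7 estimates. HTB3 was above 0 in all 7, by 0.39 to 0.95, while HTB6 and H1.2 were below 0 in 1 of 7. For HTB6 the values on control medium were 0.85, 0.145, 0.13 and 0.50 at 0, 1, 3 and 6 h. On H2O2 they were 0.12, 0.5 and -0.15 at 1, 3 and 6 h. Some replication-linked probe sets showed little zone difference at 0 h on control medium. For H3.1 the values at 0 h were 0.048 for 257714_at and -0.052 for 264262_at, against -0.573 and -0.584 at 3 h. For H4 they were 0.014 for 261408_s_at and 0.016 for 266226_at at 0 h, against -0.85 and -0.294 at 3 h. The other H3.1 and H4 probe sets lay between -1.115 and -0.192 at 0 h. These are estimates from 2 arrays per zone, with no test of a single time.

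Genes of chromatin assembly and of the cell cycle were read from lists beside the histones. As background, 58.3% of all probe sets and 83.8% of those with a mean signal of at least 50 were called on control medium, 32.3% of all were lower, and 34.4% of all had no overlap between zones. Of 23 histone chaperone and exchange entries 4 were measured, and all 4 were lower in the elongation zone of control roots with no overlap. ASF1A and ASF1B, which carry H3 with H4, differed by -1.18 and -1.16, NASP, a chaperone of H3, by -1.18, and SWC2, a subunit of the complex that exchanges H2A.Z, by -0.78. Of 25 replication entries 3 were measured and all 3 were lower. MCM7, a subunit of the replicative helicase, differed by -1.70, ICU2, the catalytic subunit of DNA polymerase alpha, by -1.09, and FEN1, a flap endonuclease, by -0.97.

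Mitotic genes had 4 of 19 entries measured, and AUR1, AUR2, AUR3 and BUBR1, which are Aurora kinases and a spindle checkpoint protein, differed by -2.01, -2.62, -1.88 and -2.68. The cell cycle inhibitor SIM, known for promoting endoreduplication, was the only one of 4 such entries measured, and it was higher by 2.42. SIM ranged from 995 to 1795 in the elongation zone, against 117 to 442 in the meristematic zone. The median over the replication-linked histone probe sets was -0.41, while the H3.1 probe set 250434_at, at -1.31, fell further than ICU2 and FEN1. Folds of different probe sets also depend on how each responds, and no order between these lists was tested.

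Under H2O2 none of the 16 histone genes and none of the 13 shared probe sets passed the test against control medium, in either zone and at any time. In the elongation zone the background of called probe sets was 0.0308% at 1 h, 0.136% at 3 h and 0.0572% at 6 h. In the meristematic zone it was 0.0% at 1 h, 0.0396% at 3 h and 0.136% at 6 h. As the mean over the 3 times 0.506% of all probe sets were called in the elongation zone, against 0.259% for the meristematic zone. A count of 0 among 16 is thus near the background and is no result about histones. At an unadjusted p under 0.05 limma gave 1, 0 and 5 histone genes in the elongation zone at 1, 3 and 6 h, and 0, 1 and 3 in the meristematic zone.

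The estimates at 6 h leaned to lower values on H2O2. In the elongation zone 14 of 16 histone genes had a negative estimate, with a median of -0.38 on the log2 scale beside -0.01 for all probe sets. In the meristematic zone it was also 14 of 16, with a median of -0.35 beside -0.01. At 1 h the medians were 0.14 and 0.17 in the elongation and meristematic zones, and at 3 h -0.02 and -0.03. Genes on 1 array share its error, so these counts of signs are no test.

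HTB6 came closest to the threshold. Its signals at 6 h in the elongation zone were 267.7 and 240.7 on H2O2, against 613.6 and 506.2 on control medium, without overlap. The log2 difference was -1.09 ± 0.26 (limma, adjusted p = 0.18). In the meristematic zone at 6 h HTB6 had 249 and 320.2 on H2O2, against 368 and 411 on control medium, a difference of -0.44 ± 0.26 that did not pass. Over the 3 times its mean difference was -0.42 ± 0.15 in the elongation zone, beside -0.32 ± 0.15 for the meristematic zone, with adjusted p values by limma of 0.372 and 0.86.

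HTB11 at 6 h in the elongation zone had 1558 and 1215 on H2O2, against 1936 and 1904 on control medium, a difference of -0.48 ± 0.15 (limma, adjusted p = 0.358). HTB2 had 853 and 691 on H2O2 at 1 h in that zone, against 553 and 492 on control medium, and 598 and 594 against 782 and 779 at 6 h. The first of these log2 differences was 0.54 ± 0.17 and the second -0.38 ± 0.17, with adjusted p values by limma of 0.444 and 0.607. The sign of HTB2 thus differed between times, with neither value past the threshold. HTB1 at 6 h in the meristematic zone had 1378 and 1481 on H2O2, against 1969 and 2380.0 on control medium, and its difference of -0.59 ± 0.24 did not pass either.

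Of the shared probe sets the H3.1 probe set 250433_at was nearest, with 555 and 421 on H2O2 at 6 h in the elongation zone, against 1009 and 796 on control medium. Its log2 difference was -0.87 ± 0.22 (limma, adjusted p = 0.193), and -0.62 ± 0.22 in the meristematic zone (limma, adjusted p = 0.402). At 6 h in the elongation zone the median over H3.1 probe sets was -0.33, over H4 -0.36, over H2B -0.40 and over H3.3 -0.04. In the meristematic zone the same medians were -0.28, -0.23, -0.44 and -0.27.

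The interval of the mean H2O2 effect bounds the mean over 1, 3 and 6 h, and not an effect at a single time. For all 16 histone genes in both zones the 95% interval lay within 1 on the log2(signal + 16) scale. That is a change of less than 2-fold either way in signal + 16. For the 5 genes with a mean signal under 50 the added 16 is large, so it does not bound the fold of the signal itself. In the elongation zone the intervals reached from -0.74 to 0.73 over the 16 genes, and in the meristematic zone from -0.90 to 0.43. At 6 h alone the interval lay within 1 for 9 of the 16 genes in the elongation zone and for 12 in the meristematic zone. For HTB2 the mean effect was -0.03 ± 0.10 in either zone, while single values at 6 h had intervals such as -1.64 to -0.53 for HTB6. The mean H2O2 effect was not shown to differ between zones for any histone gene, in a comparison that called 0.0% of all probe sets. At an unadjusted p under 0.05 it gave 0 histone genes and 971 of all probe sets by limma.

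**Figure D3:**
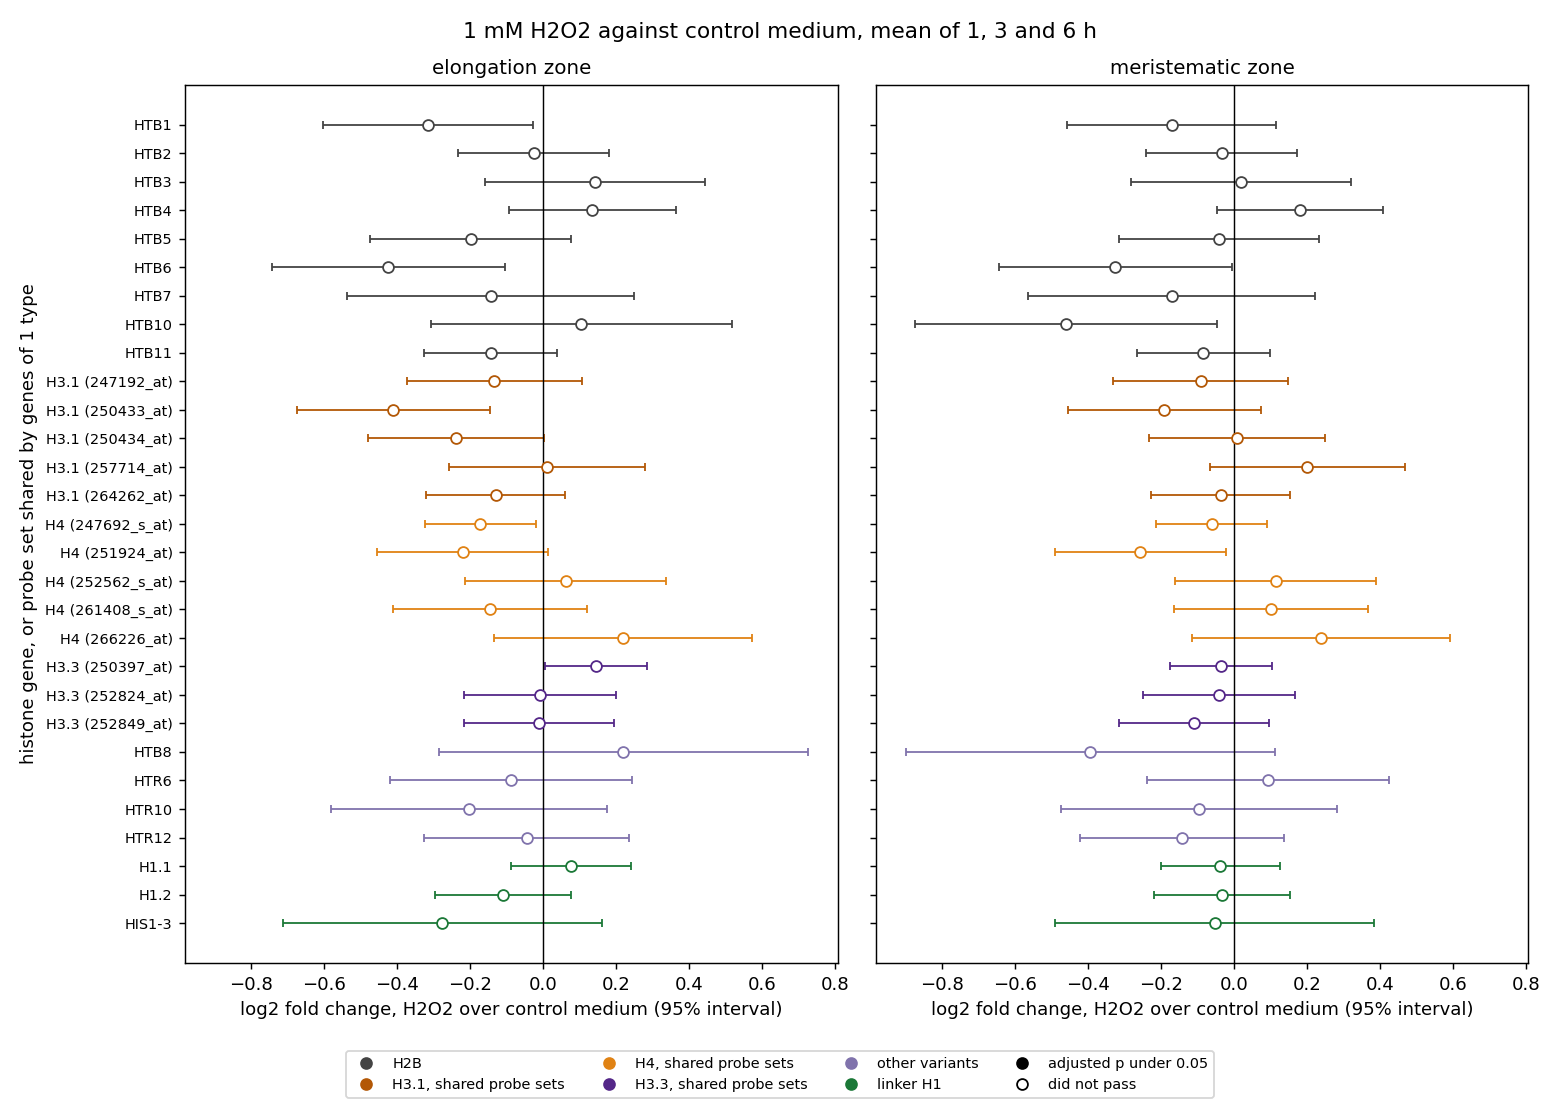
Mean log2 fold change of 1 mM H2O2 over control medium at 1, 3 and 6 h (horizontal axis, points, with 95% intervals as bars) in the elongation zone at left and the meristematic zone at right, for 16 histone genes and 13 shared probe sets in rows. All points are open because none had an adjusted p under 0.05 in limma, and every interval lies between -1 and 1.

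Time on control medium was the last comparison, as a limma F test over 0, 1, 3 and 6 h. No histone gene passed in either zone, where the test called 0.422% of all probe sets in the elongation zone, beside 0.365% for the meristematic zone. At an unadjusted p under 0.05 it gave 6 of 16 histone genes in the elongation zone, beside 13.6% of all probe sets, and 0 of 16 in the meristematic zone, beside 8.12%. The lowest adjusted p was 0.0994, for HTB2 in the elongation zone, where it had 841 and 980.2 at 0 h, 553 and 492 at 1 h, 617 and 626 at 3 h and 782 and 779 at 6 h. Its arrays at 0 h were the highest and those at 1 h the lowest.

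The 9 H2B genes all had estimates below their 0 h level in the elongation zone at 1, 3 and 6 h, with medians of -0.57, -0.59 and -0.28 on the log2 scale. H3.1 probe sets had medians of -0.47, -0.63 and -0.32, and H4 probe sets of -0.34, -0.49 and -0.13. H3.3 probe sets had medians of -0.05, -0.02 and 0.01, and H1 genes had 0.00, -0.14 and -0.04. Over all probe sets the medians were 0.00, -0.01 and -0.03. The 2 arrays at 0 h enter each of these differences, so the times and genes are not independent, and transfer, time of day and age cannot be told apart here. In the meristematic zone H2B medians were -0.11, -0.29 and 0.05, and H3.1 medians -0.08, -0.31 and -0.05. Probe set 264262_at for H3.1 had the lowest adjusted p of the shared ones in the elongation zone, 0.0902 by limma, with 2829 and 2703 at 0 h and 1591 and 1588 at 3 h. With the replicate number as a block 264262_at passed (limma, adjusted p = 0.0274), in a fit that called 1.82% of all probe sets, and no histone gene did.

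**Figure D4:**
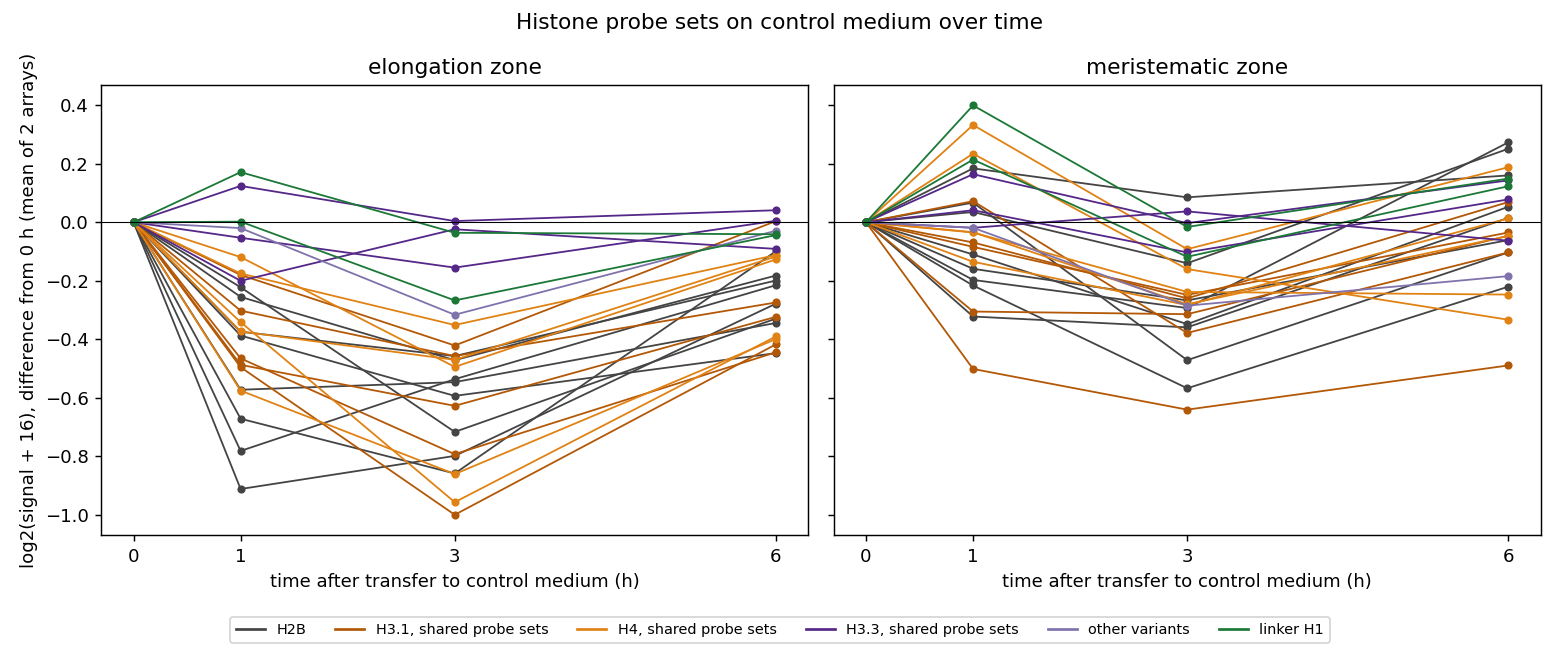
Change of log2(signal + 16) from 0 h on control medium (vertical axis, means of 2 arrays) against time (h, horizontal axis) in the elongation zone at left and the meristematic zone at right, for 11 brighter histone genes and 13 shared probe sets as lines. Lines of H2B, H3.1 and most H4 dip at 1 and 3 h in the elongation zone, while H3.3 and H1.2 lie between -0.20 and 0.17. None of the histone genes passed the F test over time.

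Some of the loci adjoin in the genome order of the RefSeq annotation. HTR13 and HTR9, both H3.1, and HTR4 and HTR5, both H3.3, have 0 protein-coding genes between them, as do HTB10 and the H2A variant gene HTA12. HTB3 and an H4 gene, HIS4, are 1 gene apart, and HTB1 and another H4 gene 2. Because the H4 and H3 genes were read only through shared probe sets, no pair of adjoining genes could be compared one to one.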

How the data were processed

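Signals were read from 28 ATH1 arrays. The authors deposited linear intensity values, 1 per probe set and array, and per the submitters' processing notes MAS5 and GCRMA were used, with no role given. Every array's mean after trimming 2% at each end is 250. Of 22810 probe sets 64 controls were left out. Genes were named from GEO's platform annotation and a RefSeq table of assembly TAIR10.1, used for names and gene order. AT3G53650 was matched by locus name, since its gene ID had no match. Detection calls were not used.

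Values were taken as log2(signal + 16), which understates changes of dim genes. All arrays entered 1 limma model (version 3.58.1, R 4.3.3) with a mean per group and an intensity trend, 14 residual and 5.6 prior degrees of freedom, 2-sided moderated tests and Benjamini-Hochberg adjustment over 22746 probe sets. The scripts were tested on simulated data. Every locus with a probe set of its own was named, and list genes if called, up to 4 per list. Single shared probe sets were named after their values were seen. The members, classes and lists were chosen with earlier results of these data known. Classes were described by counts and medians without a test. Sequences and promoter motifs are not analysed here. Alternatives were the pseudocount, quantile normalization, median centring, a limit on dim probe sets, no intensity trend, only the arrays compared, the replicate number as a term, and arrays left out. Leaving out the arrays at 1 h was chosen after seeing the data.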

Additional observations from a re-analysis of the deposited data

How the results depend on the processing

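The zone counts on H2O2 (8 called, 7 lower, 1 higher) and on control medium (11 called, 8 lower, 3 higher) kept their direction and stayed within 1.5 times of these values under a pseudocount of 1 or 64, quantile normalization, the limit on dim probe sets, no intensity trend, only the arrays compared, and without the arrays at 1 h. Median centring was the exception. With it the genes higher on H2O2 were 4 and the genes lower on control medium were 5. The medians of replication-linked, variant and H2B probe sets became -0.291, 0.049 and -0.087 on H2O2, and -0.134, 0.035 and -0.05 on control medium. Negative differences that turned positive were H1.1 at 0.056, 250397_at at 0.30, HIS1-3 at 0.284, 266226_at at 0.106, HTR6 at 0.018 and HTR10 at 0.049 on H2O2. On control medium they were 250397_at at 0.07, 252849_at at 0.27, HTB7 at 0.005, HTR6 at 0.141, HTR10 at 0.035 and 266226_at at 0.119. Centring shifts all values of an array by 1 amount. With a pseudocount of 1 the variant median on H2O2 was -0.55, and the cause was not tested. Leaving out each of the 28 arrays in turn gave 8 to 10 genes called on H2O2 and 10 to 11 on control medium, with 1 to 2 higher on H2O2; the lone array left in a group was assumed to vary like the others. The genes added were HTB7, HTR6, HTR10 and HTB10. The second higher gene was HTB10, without replicate 2 of the elongation zone at 1 h on H2O2.

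No histone gene was called in any of the 11 comparisons of H2O2 or time in any of the 183 alternative results run for them. Of the shared probe sets 1 passed the F test over time in the elongation zone under quantile normalization, under the replicate block, and without replicate 1 of the 1 h control arrays. Leaving out those arrays was not run for comparisons that do not use them.

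Replicate numbers did not enter the main tests, and the labels do not say whether same-numbered zones came from the same roots. Between both zones at the same time and medium, correlations of same-numbered deviations ran from 0.0583 to 0.438 over 7 pairs. In the elongation zone on control medium they ran from 0.18 to 0.321 over 6 pairs. Correlations of same-numbered deviations over 91 pairs of groups ran from -0.11 to 0.438, with a median of 0.0992, although replicate 1 lay above replicate 2 on the second principal component in all 14 groups, as a hint from the data. With the replicate block 9 genes were called on H2O2 and 12 on control medium, HTB7 being added in both, and 0 in every comparison of H2O2 or time. In the F test over time that block called 1.82% of all probe sets in the elongation zone, beside 0.422% without it. For the meristematic zone it called 1.03%, beside 0.365% without it. Dim genes limit the precision: the 5 histone genes with a mean signal under 50 reached 56.0 at most.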
